A study of Homo sapiens with 3 samples.

Results

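The 55 captured fragments described here are adjoining HindIII fragments of chromosome 9q31.2, chr9:110758376-110930754 in GRCh37, whose baits surround breast cancer risk variants near 110.84 and 110.89 Mb. They were chosen by position alone, as the captured fragments of chromosome 9 that start in the part of the captured region holding the variants, the first at 110758376 and the last at 110929581. They are 55 of 100 fragments captured at 9q31.2 and of 1077 captured in the whole series. The other 45 fragments of the locus, telomeric of them up to position 111099364, are called the telomeric fragments, and serve as the nearest comparison. Fragments called at the first or second variant lie within 5 kb of 110.84 or 110.89 Mb. These positions are rounded, and such a fragment need not hold the variant.

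Capture Hi-C was run on BT483 cells, from a primary invasive ductal carcinoma of the breast, on SUM44 cells, a breast cancer line from an effusion, and on GM06990 cells, a lymphoblastoid line made from B lymphocytes. BT483 was grown in RPMI 1640 with 20% fetal bovine serum and insulin, SUM44 in phenol-red-free RPMI 1640 with 10% serum and 1 nM estradiol, and GM06990 in RPMI 1640 with 15% serum. All cells were fixed for 5 min in 2% formaldehyde, BT483 nuclei were released with trypsin, and those of SUM44 and GM06990 with a dounce homogeniser. Each line gave 2 replicates (n = 2 per line), and line, medium and lysis cannot be told apart. The labels do not say whether replicates came from different cultures, and the p-values given here rest on the variation between the deposited libraries, which may be technical only.

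In Capture Hi-C, DNA that lies close together in fixed nuclei is cut with HindIII, whose site is AAGCTT, ligated, and enriched with oligonucleotide baits for chosen fragments. Risk variants outside genes are often studied this way because an enhancer, a stretch that binds transcription factors, can act on a promoter far away through a chromatin loop. The variants of 9q31.2 lie in a stretch without protein-coding genes between KLF4 on the centromeric side, which encodes a zinc-finger transcription factor, and ACTL7B on the telomeric side, which encodes an actin-like protein of the testis. In the RefSeq gene order of GRCh38.p14, RAD23B and then ZNF462 follow KLF4 towards the centromere, and ACTL7A follows ACTL7B towards the telomere. No gene positions of GRCh37 were used here, so target windows are given by coordinates only.

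For each captured fragment, near cis contacts were those with targets outside the captured region and within 5 Mb of it on the same chromosome, on the centromeric or the telomeric side. Trans contacts were those with other chromosomes. Over all captured fragments a library held between 306886 and 1365525 near cis contacts and between 1440804 and 4202970 trans contacts. The 55 fragments supplied 14814 and 73552 of the near cis contacts in the BT483 replicates, 80897 and 70894 in SUM44, and 41993 and 35683 in GM06990. Their trans contacts numbered 67758 and 247389 in BT483, 85379 and 82991 in SUM44, and 95865 and 208492 in GM06990. BT483 replicate 1 was thus the shallowest library, and 92.9% of its pairs of a captured fragment with 1 of the 2949 targets held no contact, against 74.4% to 84.8% in the other libraries. It also held more short contacts, with 6.08% of its near cis contacts under 50 kb, against 2.35% in BT483 replicate 2, 3.11% and 3.34% in SUM44 and 2.61% and 2.50% in GM06990.

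Capture of the 55 fragments was uneven. Fragment lengths ran from 77 to 10134 bp, with a median of 2575 bp. The fragment chr9:110791238-110793125 was all but missing, with 7 trans contacts over the 6 libraries and at most 4 in any of them. The 77 bp fragment chr9:110783101-110783177 had 91, and chr9:110832351-110833314, which adjoins the fragments at the first variant, had 886. At the other end, chr9:110871611-110872717 had 30742 trans contacts, chr9:110926255-110929580 had 30630 and chr9:110796045-110797249 had 29219. The first and the third of these well-captured fragments are just over 1 kb long. All but the first 2 fragments of low yield had at least 50 trans contacts in every library, which leaves 53 for the values per fragment below.

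Trans contacts of a fragment were used as the measure of how well it was captured, and near cis contacts are given per trans contact. On that scale the fragments made most near cis contacts in SUM44. Summed over the set, near cis contacts per trans contact were 0.219 and 0.297 in the BT483 replicates, 0.948 and 0.854 in SUM44, and 0.438 and 0.171 in GM06990. Both SUM44 values lay above the other 4, and the BT483 values lay between the GM06990 values, which differed more from each other than those of any other line. Line means were 0.258 ± 0.056 in BT483, 0.901 ± 0.066 in SUM44 and 0.305 ± 0.189 in GM06990 (SD, n = 2 each). The telomeric fragments gave 0.266 ± 0.061 in BT483, 0.977 ± 0.071 in SUM44 and 0.308 ± 0.186 in GM06990, so the order of the lines there was the same.

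Across the 53 fragments, longer ones made more near cis contacts per trans contact. Spearman's rho between length and this ratio was 0.54 and 0.71 in BT483, 0.82 and 0.87 in SUM44, and 0.89 and 0.88 in GM06990, over fragments that share a library and lie side by side. Length and trans count had rho of 0.11 and -0.27 in BT483, -0.36 and -0.52 in SUM44, and -0.24 and -0.19 in GM06990. The 11 fragments over 5 kb together had 0.248 and 0.383 near cis contacts per trans contact in BT483, 1.30 and 1.28 in SUM44, and 0.601 and 0.229 in GM06990. The 9 fragments under 1 kb had 0.180 and 0.273 in BT483, 0.809 and 0.647 in SUM44, and 0.338 and 0.133 in GM06990. In each of the 6 libraries the long fragments were above the short ones. Length is therefore given beside the fragments at the variants, which differ in it.

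The contacts of each fragment on each side were compared between lines with trans counts as the scale. In SUM44 over GM06990, 100 of 105 fragment sides were higher and none lower, and in BT483 over SUM44, 102 of 105 were lower and none higher (edgeR quasi-likelihood F test, adjusted p under 0.05). Those shares have to be read against the series, where 80.1% of 2001 fragment sides were higher in SUM44 over GM06990 and 80% were lower in BT483 over SUM44. The median log2 change of the members was 1.65 in SUM44 over GM06990, against 1.64 over all fragment sides, and -1.89 in BT483 over SUM44, against -1.78. The members thus changed about as much as the captured fragments of the whole series.

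In BT483 over GM06990 no fragment side passed, and 0% of the series did. None of the 105 had an unadjusted p under 0.05, DESeq2 called none, and the member median was -0.20 on the log2 scale against -0.13 over all. The standard errors of these log2 changes ran from 0.62 to 0.72. In simulated counts this test recovered 0% of planted 1.5-fold and 0% of planted 2-fold changes in BT483. It could thus not detect changes of that size, and the absence of calls is no sign that BT483 and GM06990 were alike. The 3 largest changes of SUM44 over GM06990 were on the telomeric side of chr9:110824380-110829061, with a log2 change of 2.13 ± 0.70 (SE), of chr9:110892805-110901419, at the second variant, with 2.02 ± 0.70, and of chr9:110782238-110783100, with 2.01 ± 0.70. Each had an edgeR adjusted p of 0.0322. In BT483 over SUM44 the largest were -2.39 ± 0.70 (SE) on the telomeric side of chr9:110875955-110881578, -2.23 ± 0.70 on the centromeric side of chr9:110838269-110838602, at the first variant, and -2.19 ± 0.70 on the centromeric side of chr9:110916611-110925814, each with an edgeR adjusted p of 0.0129.

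Most of these calls were lost with a change of scale. Near cis totals and TMM factors divide out a change shared by all captured fragments. On those scales only a departure from the shared change can pass, so they cannot decide whether the shared change is present. With near cis totals in place of trans counts 0 of 105 passed in either comparison. With TMM factors on the trans counts 0 passed in both and 4 passed in BT483 over GM06990, and with totals of cis and trans contacts 10 passed in SUM44 over GM06990 and 24 in BT483 over SUM44, among them 4 of the 6 named sides. Without BT483 replicate 1, BT483 replicate 2, SUM44 replicate 1 or SUM44 replicate 2 none passed in any comparison. Without GM06990 replicate 1, 105 passed in both comparisons with SUM44, and without GM06990 replicate 2, 79 passed in SUM44 over GM06990, 105 in BT483 over SUM44 and 4 in BT483 over GM06990. With the replicate number as a block none passed.

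A fragment can be set against itself, by the share of its near cis contacts that lay on the centromeric side, which needs no scaling by trans contacts. Summed over the set this share was 64.3% and 57.9% in BT483, 61.7% and 62.1% in SUM44, and 64.2% and 64.4% in GM06990. The BT483 replicates stood farther apart than the lines. The share fell along the set, from the fragments nearest the centromere to the last, with Spearman's rho between position and share of -0.80 and -0.59 in BT483, -0.90 and -0.81 in SUM44, and -0.78 and -0.74 in GM06990 (n = 53). The captured region goes on for 169 kb beyond the last member, so all contacts under 100 kb were on the centromeric side in every library, as were 83.6% to 84.6% of those from 100 to 350 kb.

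By the test of side and line, 4 of 52 fragments shifted away from the centromeric side in BT483 over GM06990 and none towards it, where 1.01% of 993 fragments of the series were lower and 13.2% higher (edgeR, adjusted p under 0.05). The largest shift was in the 334 bp fragment chr9:110838269-110838602, which lies within 5 kb of the first variant position but ends short of 110.84 Mb. Its centromeric share was 57.2% and 54.6% in BT483, 63.1% and 62.7% in SUM44, and 64.8% and 64.9% in GM06990. Both BT483 libraries were below the other 4. The log2 change of the centromeric to telomeric ratio was -0.58 ± 0.14 (SE) in BT483 over GM06990, with an edgeR adjusted p of 0.0093, and -0.46 ± 0.13 in BT483 over SUM44, with an edgeR adjusted p of 0.0282. Its change in SUM44 over GM06990 was -0.12 ± 0.12, with an edgeR adjusted p of 0.51. The call in BT483 over GM06990 was lost with targets within 2 Mb only and without BT483 replicate 2, GM06990 replicate 1 or GM06990 replicate 2.

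The other 3 were chr9:110821890-110822367, with -0.53 ± 0.15 (SE) and an edgeR adjusted p of 0.0209, chr9:110850283-110851306, with -0.49 ± 0.14 and 0.0209, and chr9:110780160-110782237, with -0.43 ± 0.14 and 0.0498. In chr9:110850283-110851306 the centromeric share was 59.3% and 55.8% in BT483, 60.4% and 62.4% in SUM44, and 66.0% and 63.9% in GM06990, and again both BT483 libraries lay below both GM06990 libraries. None of 52 passed in SUM44 over GM06990, where 10.7% of the series was higher and 7.55% lower. There 4 members had an unadjusted p under 0.05, and DESeq2 called none. A single member of 52 in BT483 over SUM44, the 334 bp fragment, was lower, where 0.101% of the series was lower and 10.4% higher.

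The count of shifted fragments rested on single libraries. Without BT483 replicate 1, the library with the extra short contacts, 29 fragments were lower in BT483 over GM06990 and 11 in BT483 over SUM44. Without BT483 replicate 2, none was lower and 2 were higher in BT483 over GM06990, and 5 were higher in BT483 over SUM44. Without SUM44 replicate 1 or SUM44 replicate 2, 1 passed in BT483 over GM06990 and 0 in BT483 over SUM44. Without GM06990 replicate 1, 1 passed in BT483 over GM06990, without GM06990 replicate 2, 0 passed, and in BT483 over SUM44 neither left any. Leaving out BT483 also moved SUM44 over GM06990, with 6 fragments without BT483 replicate 1 and 7 without BT483 replicate 2, all lower.

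Restricting both sides to pairs 350 kb to 4.9 Mb apart, a choice made after the data had been seen, removes the one-sided short contacts. At these matched distances the centromeric share of the set was 52.8% and 49.5% in BT483, 50.3% and 50.2% in SUM44, and 56.0% and 57.3% in GM06990. All 4 breast cancer libraries were below both GM06990 libraries. Exact (Clopper-Pearson) 95% intervals were 51.8% to 53.8% and 49.0% to 49.9% in BT483, 49.8% to 50.7% in both SUM44 replicates, and 55.4% to 56.6% and 56.7% to 57.8% in GM06990. No molecular identifiers are described for the reads, so these intervals cover counting error only. In the telomeric fragments the matched share was 63.1% and 59.1% in BT483, 60.3% and 61.2% in SUM44, and 64.1% and 63.6% in GM06990, and the groups did not overlap there either.

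The lower share was seen in each slice of distance. From 350 to 1000 kb it was 52.3% and 47.9% in BT483, 49.7% and 50.1% in SUM44, and 53.3% and 56.1% in GM06990. From 1000 to 2000 kb it was 54.1% and 54.8% in BT483, 51.0% and 49.4% in SUM44, and 57.3% and 56.3% in GM06990. Beyond 2000 kb it was 51.5% and 46.8% in BT483, 49.9% and 50.1% in SUM44, and 59.4% and 58.5% in GM06990. In each slice the breast cancer libraries lay below both GM06990 libraries, and the gap was widest beyond 2000 kb. From 350 to 1000 kb the 95% intervals of BT483 replicate 1, 50.9% to 53.6%, and GM06990 replicate 1, 52.5% to 54.1%, overlapped. From 1000 to 2000 kb both BT483 intervals, 51.8% to 56.3% and 54.0% to 55.7%, overlapped that of GM06990 replicate 2, 55.1% to 57.5%. That of BT483 replicate 1 also overlapped that of GM06990 replicate 1, 56.2% to 58.4%. Beyond 2000 kb no breast cancer interval reached those of GM06990.

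Fragment by fragment, all 4 breast cancer libraries had a lower matched share than both GM06990 libraries in 32 of 53 members, against 13% of 1010 captured fragments of the series and 18 of 45 in the telomeric fragments. At matched distances 16 of 51 members were lower and none higher in BT483 over GM06990, where 2.97% of 978 fragments were lower and 20% higher (edgeR, adjusted p under 0.05). Of the same 51, 20 were lower and none higher in SUM44 over GM06990, where 9.71% were lower and 13.7% higher. Both comparisons use the GM06990 libraries. Members lie side by side and share libraries and targets, so their calls are not independent of each other. The median log2 change of the members was -0.36 in BT483 over GM06990, against 0.18 over the series, and -0.36 in SUM44 over GM06990, against -0.05. Of the telomeric fragments, 5 of 43 were lower in BT483 over GM06990 and 3 of 43 in SUM44 over GM06990, with a median of -0.25 in both.

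Between the breast cancer lines, no member passed for matched share in BT483 over SUM44, where 0.204% of the series was lower and 14.1% higher. There 3 members had an unadjusted p under 0.05, DESeq2 called none, and the median was 0.03. The numbers of calls again depended on the libraries, though no member changed to higher in either comparison with GM06990. For BT483 over GM06990 there were 30 without BT483 replicate 1, 3 without BT483 replicate 2, 7 without SUM44 replicate 1 or 2, 4 without GM06990 replicate 1 and 2 without GM06990 replicate 2. For SUM44 over GM06990 there were 29 without BT483 replicate 1, 28 without BT483 replicate 2, 3 without SUM44 replicate 1, 4 without SUM44 replicate 2, 6 without GM06990 replicate 1 and 4 without GM06990 replicate 2. For BT483 over SUM44 there was 1, lower, without BT483 replicate 1 and 1, higher, without BT483 replicate 2. DESeq2 called 4 in BT483 over GM06990 and 8 in SUM44 over GM06990.

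The matched share also varied with position in the set. It grew along the fragments towards the telomere, with Spearman's rho of 0.22 and 0.63 in BT483, 0.78 and 0.87 in SUM44, and 0.61 and 0.39 in GM06990 (n = 53), which is opposite in sign to that of the full share. Single members spanned 42.6% to 62.0% and 35.1% to 55.8% in BT483, 43.7% to 56.5% and 42.1% to 57.2% in SUM44, and 50.0% to 62.0% and 50.0% to 67.3% in GM06990.

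Of the members, 4 lie within 5 kb of the first variant position, 110.84 Mb, and 3 within 5 kb of the second, 110.89 Mb. The 4 at the first are chr9:110833315-110838268 (4954 bp), chr9:110838269-110838602 (334 bp), chr9:110838603-110840769 (2167 bp) and chr9:110840770-110846062 (5293 bp). Together their matched centromeric share was 48.5% and 48.9% in BT483, 51.7% and 52.6% in SUM44, and 57.8% and 58.5% in GM06990. The 3 at the second are chr9:110881579-110888374 (6796 bp), chr9:110888375-110892804 (4430 bp) and chr9:110892805-110901419 (8615 bp), and their share was 53.3% and 50.9% in BT483, 54.0% and 52.4% in SUM44, and 58.0% and 56.5% in GM06990. At both positions the breast cancer libraries were below both GM06990 libraries, as they were over the whole set. The positions 110.84 and 110.89 Mb themselves lie in chr9:110838603-110840769 and chr9:110888375-110892804.

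The 334 bp fragment had the largest called change of any member in BT483 over GM06990. Its matched centromeric share was 42.6% and 45.5% in BT483, 51.9% and 50.7% in SUM44, and 57.8% and 59.1% in GM06990. Both BT483 libraries were lowest, both SUM44 libraries in between and both GM06990 libraries highest. The log2 change was -0.78 ± 0.16 (SE) in BT483 over GM06990, with an edgeR adjusted p of 0.000162, and -0.41 ± 0.14 in SUM44 over GM06990, with 0.0219. In BT483 over SUM44 it was -0.36 ± 0.15, with an edgeR adjusted p of 0.082. The BT483 over GM06990 change stayed past the threshold without each library in turn, with edgeR adjusted p-values up to 0.0257, whereas that of SUM44 over GM06990 was lost without SUM44 replicate 1, SUM44 replicate 2, GM06990 replicate 1 or GM06990 replicate 2. The fragment had 1047 and 4323 trans contacts in BT483, 1795 and 1755 in SUM44, and 2096 and 4878 in GM06990, in each library more than the 2167 bp fragment next to it.

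Of the other fragments at the variants, chr9:110833315-110838268 also changed in both comparisons, by -0.53 ± 0.14 (SE) in BT483 over GM06990, with an edgeR adjusted p of 0.0047, and by -0.39 ± 0.13 in SUM44 over GM06990, with 0.0197. Its matched share was 46.7% and 50.3% in BT483, 51.1% and 53.1% in SUM44, and 58.2% and 59.1% in GM06990, without overlap. The fragment chr9:110840770-110846062 changed in BT483 over GM06990 by -0.39 ± 0.15, with an edgeR adjusted p of 0.0416, and chr9:110888375-110892804 by -0.49 ± 0.18, with 0.0335. The remaining 3 fragments, among them chr9:110838603-110840769, which holds the position 110.84 Mb, did not pass in either comparison. The calls of chr9:110840770-110846062 and chr9:110888375-110892804 were lost with DESeq2, with the replicate block and without any single library other than BT483 replicate 1, and that of chr9:110833315-110838268 in BT483 over GM06990 without GM06990 replicate 2. Its call in SUM44 over GM06990 was lost with DESeq2 and without either SUM44 or either GM06990 library.

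Away from the variants, the largest called changes of matched share in BT483 over GM06990 were in chr9:110850283-110851306, with -0.62 ± 0.14 (SE) and an edgeR adjusted p of 0.00063, and in chr9:110851307-110861440, the longest member, with -0.56 ± 0.18 and 0.0181. Those in SUM44 over GM06990 were in chr9:110764782-110765867, with -0.64 ± 0.14 and an edgeR adjusted p of 0.000316, in chr9:110798739-110801017, with -0.62 ± 0.15 and 0.00183, and in chr9:110824380-110829061, with -0.59 ± 0.22 and 0.0403. The matched share of chr9:110764782-110765867 was 52.9% and 46.6% in BT483, 43.7% and 45.5% in SUM44, and 54.2% and 57.0% in GM06990. There the SUM44 libraries, not those of BT483, were lowest. Each of these 5 calls was lost in some setting. That of chr9:110850283-110851306 was lost without GM06990 replicate 1, and that of chr9:110851307-110861440 with DESeq2 and without BT483 replicate 2 or either GM06990 library. That of chr9:110764782-110765867 was lost without SUM44 replicate 1, that of chr9:110798739-110801017 without SUM44 replicate 1 or GM06990 replicate 2, and that of chr9:110824380-110829061 with DESeq2 and without any SUM44 or GM06990 library.

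To see where on the chromosome the contacts fell, they were summed over the 55 fragments in 50 kb windows and divided by the count expected from distance and trans counts in the same replicate, here called the ratio to background. The windows chr9:110200001-110250000 and chr9:110250001-110300000, which end 458 kb centromeric of the first member, stood above the background in every library. In chr9:110250001-110300000 the ratio was 3.36 and 2.09 in BT483, 2.14 and 1.91 in SUM44, and 2.33 and 2.50 in GM06990, from 405 and 1357, 1637 and 1268, and 896 and 778 contacts in those libraries. No other window of the set had so high a lowest value. In chr9:110200001-110250000 the ratio was 2.09 and 1.78 in BT483, 1.82 and 1.96 in SUM44, and 1.65 and 1.95 in GM06990. The next window towards the centromere, chr9:110150001-110200000, had 1.49 and 1.59 in BT483, 1.84 in both SUM44 libraries, and 1.41 and 1.58 in GM06990. Target fragments in these 3 windows had already been picked out in these libraries, so their height is a description and not independent evidence.

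Both windows were chosen for their height in the sum over these same members, so the values per member describe how the sum is made up and are no further evidence of it. In 42 of 53 members the ratio over both windows was above 1 in all 6 libraries. The median member had 2.61 and 1.79 in BT483, 1.98 and 1.91 in SUM44, and 2.12 and 2.26 in GM06990. Together the 3 fragments at the second variant had ratios in chr9:110250001-110300000 of 4.06 and 3.04 in BT483, 2.57 and 2.54 in SUM44, and 3.15 and 4.26 in GM06990. The 4 fragments at the first had 2.94 and 2.16 in BT483, 2.49 and 1.94 in SUM44, and 2.46 and 2.91 in GM06990. Per library these ratios rest on 26 to 77 contacts at the second variant and 22 to 137 at the first. Whether the gaps exceed counting error was not tested. In every library the fragments at the second variant were above those at the first. They are also longer, at 4430 to 8615 bp against 334 to 5293 bp, the ratio is not scaled by length, and the part of length in this difference was not tested.

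The member with the highest lowest ratio over the stretch was chr9:110881579-110888374, at the second variant, with 3.36 and 2.91 in BT483, 3.09 and 2.82 in SUM44, and 3.79 and 4.26 in GM06990. It had 16 and 53 contacts with the stretch in BT483, 64 and 48 in SUM44, and 44 and 43 in GM06990. The 334 bp fragment had 1.38 and 1.93 in BT483, 2.00 and 1.96 in SUM44, and 2.16 in both GM06990 libraries, on 5 and 44 contacts in BT483, 62 and 53 in SUM44, and 35 and 30 in GM06990. Counts this small limit any comparison of single members at the stretch.

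No difference between lines in contacts with the stretch passed the test. In chr9:110250001-110300000 the log2 change was 0.13 ± 0.19 (SE) in BT483 over GM06990, -0.26 ± 0.18 in SUM44 over GM06990 and 0.39 ± 0.18 in BT483 over SUM44, with edgeR adjusted p-values of 0.65, 0.28 and 0.20. In chr9:110200001-110250000 it was 0.09 ± 0.13 in BT483 over GM06990, 0.07 ± 0.13 in SUM44 over GM06990 and 0.02 ± 0.13 in BT483 over SUM44, with edgeR adjusted p-values of 0.66, 0.70 and 0.94. Values that miss the threshold do not show that the lines are alike.

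The other windows of the 5 highest, which lie further off, were high in every library too. In chr9:107600001-107650000 the ratio was 2.11 and 1.92 in BT483, 2.22 and 2.20 in SUM44, and 2.06 and 1.66 in GM06990. In chr9:107850001-107900000 it was 1.87 and 1.74 in BT483, 2.28 and 1.92 in SUM44, and 1.64 and 1.798 in GM06990. In chr9:108600001-108650000 it was 2.00 and 1.62 in BT483, 2.06 and 1.89 in SUM44, and 2.18 and 2.01 in GM06990. All 5 of the windows that stood highest over the background in every library were on the centromeric side, and none of them was called between lines.

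The same windows were then compared between the 55 fragments and the telomeric fragments, within each library. Contacts with chr9:110200001-110250000 stood lower over the background for the 55 fragments than for the telomeric fragments. The ratio was 2.09 and 1.78 for the 55 fragments, against 2.86 and 2.46 for the telomeric fragments, in BT483. In SUM44 it was 1.82 and 1.96 for the 55 fragments, against 2.51 and 2.55 for the telomeric fragments. In GM06990 it was 1.65 and 1.95 for the 55 fragments, against 2.45 and 2.77 for the telomeric fragments. In every library the 55 fragments, which lie nearer to the window, were below the telomeric fragments. The log2 difference was -0.46 ± 0.05 (SE) in BT483, -0.42 ± 0.04 in SUM44 and -0.54 ± 0.05 in GM06990, with edgeR adjusted p-values of 0.000307, 7.7e-05 and 0.00053.

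The scale sets how far this can be read. Near cis totals do not correct for distance, and the 55 fragments lie nearer to these windows than the telomeric fragments do. Values on that scale mix distance with any other difference, so they cannot decide whether the difference from the distance background holds. With near cis totals as the scale, the difference at chr9:110200001-110250000 was -0.25 in BT483, -0.19 in SUM44 and -0.31 in GM06990, with edgeR adjusted p-values of 0.0777, 0.0946 and 0.0117. Without BT483 replicate 2 the adjusted p in BT483 was 0.117, and without GM06990 replicate 1 that in GM06990 was 0.0625. At chr9:110250001-110300000 the difference was -0.22 ± 0.05 (SE) in BT483 and -0.21 ± 0.04 in SUM44, with edgeR adjusted p-values of 0.0218 and 0.0072, and -0.13 ± 0.05 in GM06990, with 0.18, but with near cis totals it turned to 0.02, 0.03 and 0.11. That call in BT483 was also lost with DESeq2, with the replicate block and without BT483 replicate 2, GM06990 replicate 1 or GM06990 replicate 2, and that in SUM44 with DESeq2 and without SUM44 replicate 2. Contacts of the 55 fragments under 100 kb lie on the centromeric side only, so their background at those distances comes from that side alone. These windows end 458 kb from the first member, where contacts of both sides enter the background. The background is 1 smooth curve over all distances, and the part of the short contacts in it was not tested.

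Over all 176 windows, the 55 fragments were higher than the telomeric fragments in 15 windows (8.52%) and lower in 14 (7.95%) in BT483, higher in 28 (15.9%) and lower in 26 (14.8%) in SUM44, and higher in 2 (1.14%) and lower in 5 (2.84%) in GM06990. With near cis totals the split was 3 higher and 5 lower in BT483, 7 and 10 in SUM44, and 8 and 8 in GM06990. The largest higher windows were telomeric, among them chr9:112100001-112150000, with 0.76 ± 0.15 (SE) in BT483 and 0.66 ± 0.14 in GM06990 and edgeR adjusted p-values of 0.0089 and 0.0298. Others were chr9:112350001-112400000 in BT483, with 0.66 ± 0.17, chr9:112400001-112450000 in SUM44, with 0.73 ± 0.13, and chr9:112600001-112650000 in GM06990, with 0.72 ± 0.13. The 55 fragments lie farther from these windows than the telomeric fragments do, and near cis totals do not correct for distance. On that scale these 5 differences were 0.20 to 0.31 and none passed. The windows beside the captured region, chr9:110700001-110750000 and chr9:110750001-110800000, were lower on the distance background and higher with near cis totals, so no direction is given for them.

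Leaving out a library moved these counts. In BT483 there were 12 called windows without BT483 replicate 1, 4 without BT483 replicate 2, 17 without either GM06990 library and 37 without either SUM44 library. In SUM44 there were 35 without SUM44 replicate 1, 15 without SUM44 replicate 2, 35 without either GM06990 library and 49 without either BT483 library. In GM06990 there were 0 without GM06990 replicate 1, 4 without GM06990 replicate 2, 11 without SUM44 replicate 1, 12 without SUM44 replicate 2 and 6 without either BT483 library.

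The difference between the 55 fragments and the telomeric fragments varied with line in few windows. It was larger in BT483 over GM06990 in 2 of 176 windows (1.14%) and smaller in 3 (1.7%), and in BT483 over SUM44 larger in 2 (1.14%) and smaller in 2 (1.14%). None (0%) passed in SUM44 over GM06990, with 15 at an unadjusted p under 0.05 and none by DESeq2. The strongest was chr9:110500001-110550000, where the ratio of the 55 fragments was 1.11 and 1.08 in BT483, 1.38 and 1.45 in SUM44, and 1.33 and 1.31 in GM06990, and that of the telomeric fragments was 1.40 and 1.42 in BT483, 1.55 and 1.61 in SUM44, and 1.26 and 1.23 in GM06990. The log2 difference in BT483 over GM06990 was -0.47 ± 0.05 (SE), with an edgeR adjusted p of 0.0019. No window passed with near cis totals or with DESeq2. For BT483 over GM06990, 1 passed without BT483 replicate 1, 0 without BT483 replicate 2 or either GM06990 library and 7 without either SUM44 library. In BT483 over SUM44, 0 passed without either BT483 library, 2 without either GM06990 library or SUM44 replicate 1 and 3 without SUM44 replicate 2.

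Between lines, the far windows of the 55 fragments differed most. Against the distance background of each library, the breast cancer lines stood higher at the far telomeric end and lower at the far centromeric end. Gains and losses are changes of the ratio to background, not of contacts per trans contact. With trans totals as the scale, no window was called lower in SUM44 over GM06990, and none passed in BT483 over GM06990. The largest gains of both BT483 and SUM44 over GM06990 were within chr9:114650001-115050000, and the largest losses within chr9:106000001-107350000. Over the 8 windows of the telomeric stretch the ratio to background was 1.36 and 1.74 in BT483, 1.96 and 1.65 in SUM44, and 0.595 and 0.733 in GM06990. Over the 27 windows of the centromeric stretch it was 0.700 and 0.523 in BT483, 0.471 and 0.466 in SUM44, and 1.09 and 1.06 in GM06990. In both stretches the breast cancer libraries did not overlap with those of GM06990. The stretches were bounded by the windows with the largest called changes, so these sums describe those calls and were not tested.

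Of 187 windows, 26 were higher and 18 lower in BT483 over GM06990, where 12.2% of 1357 windows of the series were higher and 11.6% lower (edgeR, adjusted p under 0.05). There were 34 higher and 45 lower in SUM44 over GM06990, where 17.3% were higher and 21% lower. In number the calls were thus not far from the series. Their place was one-sided. In BT483 over GM06990, 23 of the higher windows were telomeric and 16 of the lower ones centromeric, and in SUM44 over GM06990, 29 of the higher were telomeric and 37 of the lower centromeric. The median log2 change was -0.15 over 90 centromeric and 0.20 over 97 telomeric windows in BT483 over GM06990, and -0.30 and 0.15 in SUM44 over GM06990. The background was fitted on distance over both sides together. Higher ratios on the telomeric side thus go with lower ones on the centromeric side at the same distance. The far stretches lie at overlapping distances and share this limit. The split by side rests on contacts also counted in the matched centromeric share, and is no separate result. It was not counted for the series or the telomeric fragments.

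Contacts with chr9:114650001-114700000 numbered 31 and 247 in BT483, 162 and 122 in SUM44, and 23 and 36 in GM06990, or ratios of 1.38 and 2.04, 1.85 and 1.60, and 0.399 and 0.591 in those libraries. The log2 change was 1.88 ± 0.27 (SE) in BT483 over GM06990, with an edgeR adjusted p of 0.00098, and 1.797 ± 0.262 in SUM44 over GM06990, with 0.000587. In chr9:115000001-115050000 the ratio was 1.06 and 1.26 in BT483, 1.58 and 1.53 in SUM44, and 0.373 and 0.396 in GM06990, with log2 changes of 1.64 ± 0.27 and 2.01 ± 0.26 and edgeR adjusted p-values of 0.0022 and 0.000278. In chr9:114750001-114800000 the ratio was 1.03 and 1.87 in BT483, 1.71 and 1.85 in SUM44, and 0.602 and 0.468 in GM06990, with log2 changes of 1.57 ± 0.27 and 1.73 ± 0.27 and edgeR adjusted p-values of 0.0027 and 0.00085. In all 3 windows every breast cancer library was above both GM06990 libraries.

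The largest loss of both lines was in chr9:106750001-106800000, with ratios of 0.696 and 0.410 in BT483, 0.337 and 0.359 in SUM44, and 1.72 and 1.07 in GM06990. Its log2 change was -1.54 ± 0.32 (SE) in BT483 over GM06990 and -1.997 ± 0.314 in SUM44 over GM06990, with edgeR adjusted p-values of 0.0068 and 0.00099. BT483 over GM06990 also fell in chr9:106000001-106050000, by 1.27 ± 0.28, and in chr9:107300001-107350000, by 1.21 ± 0.29, with edgeR adjusted p-values of 0.0099 and 0.0148. SUM44 over GM06990 fell in chr9:106200001-106250000, by 1.73 ± 0.27, and in chr9:106400001-106450000, by 1.49 ± 0.29, with edgeR adjusted p-values of 0.00085 and 0.0035. In each of these windows the libraries of the line named lay below both GM06990 libraries.

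The telomeric fragments had values near these in the far stretches. Their ratio over chr9:114650001-115050000 was 1.76 and 1.83 in BT483, 1.83 and 1.77 in SUM44, and 0.543 and 0.678 in GM06990, and over chr9:106000001-107350000 it was 0.705 and 0.548 in BT483, 0.531 and 0.535 in SUM44, and 1.10 and 1.05 in GM06990. Of the 8 windows named in these stretches, 6 could be tested for a difference between the 55 fragments and the telomeric fragments that varied with line, and none passed in any comparison. Within SUM44 the 55 fragments were lower than the telomeric fragments at chr9:106000001-106050000, with a log2 difference of -0.56 ± 0.18 (SE) and an edgeR adjusted p of 0.0453. That call was lost with near cis totals, DESeq2 and the replicate block, and without any single SUM44 or GM06990 library.

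The number of called windows depended on scale and library. With trans totals, which carry the spread between the GM06990 replicates, 0 windows passed in BT483 over GM06990 and 90, all higher, in SUM44 over GM06990, with the median of the windows moved to 1.38. Near cis totals gave 24 higher and 16 lower in BT483 over GM06990 and 13 higher and 50 lower windows in SUM44 over GM06990. For BT483 over GM06990, 56 passed without BT483 replicate 1, 21 without BT483 replicate 2, 26 without SUM44 replicate 1, 27 without SUM44 replicate 2, 8 without GM06990 replicate 1 and 9 without GM06990 replicate 2. For SUM44 over GM06990, 96 passed without either BT483 library, 24 without SUM44 replicate 1, 29 without SUM44 replicate 2, 32 without GM06990 replicate 1 and 27 without GM06990 replicate 2. All 6 windows named for SUM44 over GM06990 stayed past the threshold without each library in turn. Of those named for BT483 over GM06990, chr9:114650001-114700000 and chr9:115000001-115050000 did too, and the other 4 did not.

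The breast cancer lines differed in 2 of 187 windows, where 5.6% of the series was higher and 3.68% lower in BT483 over SUM44. In chr9:109400001-109450000 the ratio was 1.15 and 1.05 in BT483 and 0.743 and 0.620 in SUM44, a log2 change of 0.67 ± 0.17 (SE) with an edgeR adjusted p of 0.0338. In chr9:110500001-110550000, the window named above, it was 1.11 and 1.08 in BT483 and 1.38 and 1.45 in SUM44, a change of -0.37 ± 0.10 with an edgeR adjusted p of 0.0389. The lines did not overlap in either window. With near cis totals 25 windows were higher and 1 lower, and with trans totals 0 were higher and 122 lower, where the first of these windows changed sign to -1.10. Without BT483 replicate 1, 9 windows passed, without BT483 replicate 2, 11, and without any one of the other 4 libraries, none.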

How the data were processed

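For every captured HindIII fragment and target fragment the deposited tables give a whole-number count of read pairs, and for every captured fragment its count of trans contacts, separately for both replicates. CASAVA 1.8 and the build GRCh37 (hg19) come from the submitters' processing notes. Which aligner and filters were applied is not given in the sources used here. Counts were read as deposited. Near cis counts were summed per captured fragment and side, and per 50 kb window. Fragment counts were scaled by the trans count of the fragment and replicate. The distance background of each replicate and fragment group was a Poisson regression on a natural cubic spline of log10 distance (4 knots) and the log of the trans count plus 0.5. Fragments and windows needed 50 contacts in 1 library, on both sides or in both fragment groups where these were compared.

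Tests were quasi-likelihood F tests in edgeR 4.0.16 (R 4.3.3) with all 6 libraries in 1 fit over the whole table, 3 contrasts of lines and Benjamini-Hochberg adjusted p-values at 0.05. Comparisons of sides or fragment groups had the library as a block. DESeq2 1.42.0 was an alternative, beside other scales, windows of 25 and 100 kb, targets within 2 Mb, no filter, a replicate block and each library left out, where a lone library was assumed to vary like the others. Code was tested on simulated data. Of planted 2-fold changes in BT483, 0% were recovered for fragment sides, 97% for side balances, 98% for windows between lines and 100% between fragment groups. Of planted 1.5-fold changes, the recovered shares were 0%, 60%, 58.5% and 87.5%. The members, comparisons and windows were chosen with earlier results of these data known. Fragments named are those within 5 kb of the variant positions, the 3 of highest and lowest trans count and the 3 largest calls per contrast and direction. Windows named are the 3 largest calls, the 5 highest in every library and those holding targets given earlier for the locus. Further fragments and windows that passed, and the member highest at the stretch, were chosen after their values were seen.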

Additional observations from a re-analysis of the deposited data

Results flagged for a closer look

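Results are given here because an effect differed between lines by a test of that difference. The first is the balance of centromeric to telomeric contacts of a captured fragment. Its log2 change in BT483 over GM06990 was -0.58 in chr9:110838269-110838602, -0.53 in chr9:110821890-110822367, -0.49 in chr9:110850283-110851306 and -0.43 in chr9:110780160-110782237. In BT483 over SUM44 it was -0.46 in chr9:110838269-110838602. BT483 replicate 1 held a larger share of short contacts than the other libraries. All 5 changes passed without BT483 replicate 1, all 5 were lost without BT483 replicate 2, GM06990 replicate 1 or GM06990 replicate 2, and 4 of 5 were lost without either SUM44 library. The part of the short contacts in these results was not tested.

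The second is the difference between the 55 fragments and the telomeric fragments of the locus. In BT483 over GM06990 this difference changed by -0.47 in chr9:110500001-110550000, -0.25 in chr9:110600001-110650000, -0.24 in chr9:110650001-110700000, 0.48 in chr9:111200001-111250000 and 0.25 in chr9:111350001-111400000. In BT483 over SUM44 it changed by -0.22 in chr9:110500001-110550000 and in chr9:110600001-110650000, by 0.49 in chr9:110750001-110800000 and by 0.44 in chr9:111200001-111250000. All 9 lost significance with near cis totals and kept their sign.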

How the results depend on the processing

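With BT483 over GM06990, SUM44 over GM06990 and BT483 over SUM44 given in that sequence, contacts per fragment and side gave 4, 0 and 0 calls with TMM factors on the trans counts, 0, 0 and 0 with near cis totals and 0, 10 and 24 with totals of cis and trans contacts. The side balance gave 16, 20 and 0 calls at matched distances and 1, 0 and 0 with targets within 2 Mb, and DESeq2 gave 0 in BT483 over SUM44. At matched distances DESeq2 gave 4 and 8 in the comparisons with GM06990. Windows between lines gave 0, 90 and 122 on the scale of trans totals, 40, 63 and 26 on that of near cis totals, 29, 59 and 1 in 25 kb windows, 31, 54 and 1 in 100 kb windows and 19, 45 and 2 with DESeq2. For the 55 fragments against the telomeric fragments, BT483, SUM44 and GM06990 gave 8, 17 and 16 windows with near cis totals, 12, 8 and 3 with DESeq2 and 21, 39 and 16 in 100 kb windows. Differences of these between lines gave 0 calls with near cis totals and with DESeq2, and 3 in SUM44 over GM06990 in 100 kb windows. Signs turned in 10 cases. With near cis totals the telomeric side of chr9:110892805-110901419 in SUM44 over GM06990 became -0.55. With trans totals chr9:109400001-109450000 in BT483 over SUM44 became -1.10. With near cis totals the 55 fragments against the telomeric fragments became 0.77 in BT483, 0.82 in SUM44 and 0.92 in GM06990 at chr9:110700001-110750000, 1.21 in SUM44 and 1.37 in GM06990 at chr9:110750001-110800000, and 0.025 in BT483, 0.027 in SUM44 and 0.11 in GM06990 at chr9:110250001-110300000. Near cis totals do not correct for distance, and the 55 fragments lie nearer to the centromeric windows than the telomeric fragments do. The causes of the turned signs were not tested. Leaving out 1 library at a time, in the first sequence, gave 0 to 4, 0 to 105 and 0 to 105 fragment sides, 0 to 29, 0 to 7 and 0 to 11 side balances, 2 to 30, 3 to 29 and 0 to 1 at matched distances, and 8 to 56, 24 to 96 and 0 to 11 windows. It gave 4 to 37, 15 to 49 and 0 to 12 windows within BT483, SUM44 and GM06990, and 0 to 7, 0 to 1 and 0 to 3 for their differences between lines. Of the alternatives for single fragments and windows, 419 kept direction and side of the threshold and 267 kept direction only. Of those for the counts of calls, 114 moved the result and 90 left it the same.

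Differences between replicates correlated at 0.01, 0.03 and -0.02 between lines over 1357 windows. The windows thus showed no pairing of libraries by replicate number, but cannot show whether replicates of different lines were handled together. With the replicate block 0 fragment sides passed in each comparison, side balances gave 4, 0 and 0 calls, matched distances 14, 20 and 0, and windows between lines 41, 77 and 1. Against the telomeric fragments the block gave 17, 22 and 7 windows in BT483, SUM44 and GM06990, and 6, 1 and 3 for the differences between lines. Depth limits single fragments most in BT483 replicate 1, where 92.9% of pairs held no contact.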
